A study of Mus musculus with 48 samples.

Results

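The mitochondrially encoded transcripts are the rows of the deposited table whose symbol starts with mt-. They number 37 of 47729 rows, namely 13 protein genes, 2 ribosomal RNA genes and 22 transfer RNA genes, chosen by symbol. The table covers 48 poly(A) RNA libraries from frozen fat of male mice, with 4 libraries in each of 12 groups. The groups combine 3 depots, 2 genotypes and 2 diets: Cth-/- mice on the cystine-deficient diet (CysF), Cth-/- mice on the control diet (CTRL), Cth+/+ mice on CysF and Cth+/+ mice on CTRL, each in brown (BAT), subcutaneous (SFAT) and visceral (EFAT) fat, after 6 days of diet. Cth encodes cystathionine gamma-lyase, which makes cysteine from cystathionine, so Cth-/- mice on CysF lack both this route and dietary cystine. The labels give no age, no strain and no statement that replicate numbers stand for separate animals, so p-values measure only the spread between these libraries.

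The mitochondrial genome is a small circle that is transcribed from both strands as long precursors, which are then cut at the tRNAs into mRNAs, rRNAs and tRNAs. Its 13 proteins are subunits of the respiratory chain and of the ATP synthase: complex I (mt-Nd1, mt-Nd2, mt-Nd3, mt-Nd4, mt-Nd4l, mt-Nd5 and mt-Nd6), complex III (mt-Cytb), complex IV (mt-Co1, mt-Co2 and mt-Co3) and complex V (mt-Atp6 and mt-Atp8). All other subunits of these complexes are made from nuclear genes. Brown fat is rich in mitochondria, which release heat through the uncoupling protein Ucp1, and white depots hold far fewer.

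Library totals ran between 16.2 and 46.0 M (mega) counts. The deleted gene held 0 to 6 reads in the 24 Cth-/- libraries and 8 to 389 reads in the 24 Cth+/+ libraries. The libraries were also divided into 2 sets that no label names, by the reads of the pseudogene Gm43512 above (set B) or below (set A) 0.1 CPM (the share of a library's counts on the usual CPM scale). Set B held 21 libraries and set A 27, with 7 and 9 in each depot. The values nearest the threshold were 0.107 CPM inside set B and 0.076 CPM inside set A, and the highest was 28.0 CPM. Of the 12 groups, 11 held libraries of both sets, and the EFAT Cth+/+ CysF group held set A only. What the sets stand for is not given in the sources used here. Replicate 20 of the Cth-/- CysF groups is a set B library in every depot. Its mitochondrial share stood apart from its group in BAT and SFAT, while in EFAT it lay at 14.4%, beside 14.7% in replicate 17.

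Several mt- rows have a near-identical row elsewhere in the table, and this decides how their counts can be read. A run of 7 pseudogenes on the minus strand of chromosome 1 (24611535 to 24616197, GRCm38) matches mt-Nd4, mt-Nd4l, mt-Nd3, mt-Co3, mt-Atp6, mt-Co2 and mt-Co1 at 99.71 to 100% identity over 294 to 876 bases. The lines that follow show where a read can and cannot tell a gene from its copy. They are taken from the GENCODE M21 transcripts (GRCm38), 5′ to 3′ along each transcript, and capitals mark the bases that differ within a set.
mt-Nd3, chrM:9459-9518, plus strand: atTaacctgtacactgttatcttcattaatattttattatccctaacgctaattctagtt
Gm28438, chr1:24613060-24613119, minus strand: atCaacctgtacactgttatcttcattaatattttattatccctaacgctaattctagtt
mt-Co1, chrM:6390-6449, plus strand: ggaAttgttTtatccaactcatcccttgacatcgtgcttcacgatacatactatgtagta
Gm29216, chr1:24616129-24616188, minus strand: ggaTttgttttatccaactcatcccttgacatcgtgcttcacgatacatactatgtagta
Gm13340, chr2:22588526-22588585, minus strand: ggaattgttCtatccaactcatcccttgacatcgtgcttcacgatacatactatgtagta
mt-Co3, chrM:8607-8666, plus strand: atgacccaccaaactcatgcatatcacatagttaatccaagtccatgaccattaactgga
Gm28437, chr1:24613912-24613971, minus strand: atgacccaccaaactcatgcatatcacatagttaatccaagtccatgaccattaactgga

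The mt-Nd3 pair differed at 1 base over its 345 aligned bases, T3C, and the mt-Co1 pair at 1 base over 483, A1066T, with positions counted from 1 at the 5′ end of the mt- gene. Only the last 483 of the 1545 bases of mt-Co1 have that copy, and only 876 of the 1378 bases of mt-Nd4. Over the 783 bases of the mt-Co3 pair, the 678 of mt-Atp6, the 681 of mt-Co2, the 294 of mt-Nd4l and the 876 of mt-Nd4 no base differed.

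Neighbouring mt- genes also share bases with each other, which the next lines show with the shared bases in capitals.
mt-Atp8 and mt-Atp6, chrM:7910-7969, plus strand: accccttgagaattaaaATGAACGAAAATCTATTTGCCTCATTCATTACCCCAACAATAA
mt-Nd4l and mt-Nd4, chrM:10134-10173, plus strand: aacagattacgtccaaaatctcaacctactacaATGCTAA
The end of mt-Atp8 is also the first 43 bases of mt-Atp6, and the end of mt-Nd4l the first 7 bases of mt-Nd4. The ends of mt-Nd5 and mt-Nd6 overlap by 14 bases on opposite strands, and whether counting used strand is not given in the sources used here. mt-Nd6 (chrM 13552 to 14070) is the only protein gene of the minus strand.

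Gm43512, the pseudogene that divides the libraries, is 1 short transcript of 176 bases. Its nearest other transcript in GENCODE M21 was Car5b, a mitochondrial carbonic anhydrase gene of the nucleus. The identity was 95.082% over an alignment of 183 positions, gaps included. The Gm43512 line has no capitals because nothing is compared in it.
Gm43512, chr14:52482885-52483060, minus strand: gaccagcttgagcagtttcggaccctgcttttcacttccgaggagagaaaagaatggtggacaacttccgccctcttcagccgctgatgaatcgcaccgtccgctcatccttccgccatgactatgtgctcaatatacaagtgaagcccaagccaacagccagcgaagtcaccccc

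The 37 rows were very unequally filled. All 22 tRNA genes held 0 reads in all 48 poly(A) libraries. The 12S rRNA gene mt-Rnr1 held 591 reads over all libraries, with 15 to 62 in a BAT library, 1 to 9 in an SFAT library and 0 to 5 in an EFAT library. The 16S rRNA gene mt-Rnr2 held 1320 reads, with 35 to 132, 2 to 27 and 0 to 18 in a library of the same depots. The 13 protein genes had reads in every library, and mt-Co1 alone held 65.14 M over the 48.

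Where a pair was identical or nearly so, the deposited counts divided its reads very differently from gene to gene. Over all libraries mt-Co1, the catalytic subunit of complex IV, held 65.14 M reads, against 4.59 M on Gm29216, which put 93.4% of the pair on the mt- row. mt-Nd4 held 35.15 M reads, against 3.62 M on Gm28439, or 90.7%. The order was turned round for mt-Co2, which carries the copper centre that takes electrons from cytochrome c, with 1.31 M reads, against 28.61 M on Gm28661, or 4.38%.

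The proton channel subunit mt-Atp6 held 2.43 M reads, against 40.06 M on Gm10925, or 5.71%. mt-Co3 held 1.29 M, against 21.36 M on Gm28437, or 5.70%. mt-Nd3 held 0.65 M, against 2.61 M on Gm28438, or 19.8%, and mt-Nd4l held 2.36 M, against 1.57 M on Gm10222, or 60.2%. For 4 of the 7 pairs most reads therefore stood on a row named after chromosome 1, and counts alone cannot tell from which of the identical sequences a read came. The 6 other protein genes had no such copy: mt-Nd1 held 23.93 M reads, mt-Nd2 22.38 M, mt-Atp8 5.14 M, mt-Nd5 23.25 M, mt-Nd6 0.69 M and mt-Cytb 37.71 M.

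The copies on other chromosomes differ at more bases and held few reads. Gm13340 on chromosome 2, which covers all of mt-Co1 with 37 mismatches, held 48.7 to 714 reads in a library. Gm13341 on chromosome 2, a copy of mt-Co2 with 16 mismatches and 1 gap, held 36.5 to 893. Values below are given for the rows as deposited and, where named so, with the reads of the chromosome 1 copy added to its gene.

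**Figure D1:**
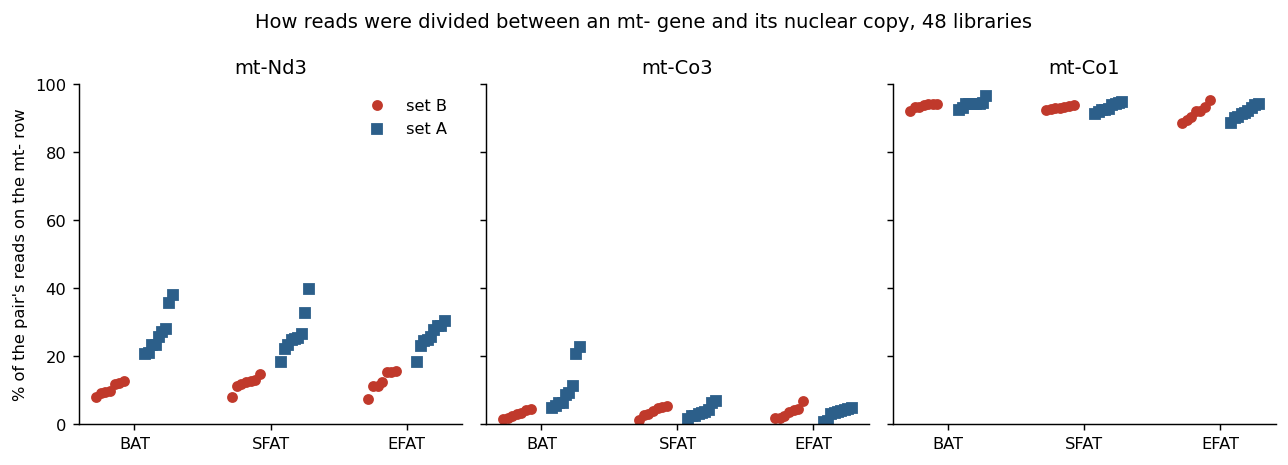
Each point is 1 of 48 libraries and shows the percent of the reads of an mt- gene and its chromosome 1 copy that stood on the mt- row, by depot, with set B (circles) left of set A (squares). For mt-Nd3 the sets do not overlap in any depot, with 7.40 to 15.8% in set B and 18.3 to 39.8% in set A, while mt-Co1 lies between 88.7 and 96.5% in both.

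How a pair was divided differed between the 2 library sets. The mt-Nd3 row, a complex I subunit, took 7.40 to 15.8% (median 11.8%) of its pair in the 21 set B libraries and 18.3 to 39.8% (median 25.3%) in the 27 set A libraries. The sets did not overlap in any depot. This was seen in the values and then described, so it carries no test.

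For mt-Co3 in BAT the mt- row took 1.69 to 4.39% of the pair in set B and 4.70 to 22.8% in set A. In SFAT and EFAT the sets overlapped for this gene, at 1.30 to 6.75% in set B and 0.717 to 6.84% in set A. For mt-Atp6 in BAT the order was opposite, with 7.49 to 13.3% in set B and 2.60 to 5.96% in set A.

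The mt-Nd4l row took between 22.3 and 100% in set B and between 39.9 and 57.7% in set A. It held the whole pair in replicate 20 of BAT and SFAT, in the Cth-/- CysF groups, in replicate 12 of BAT Cth-/- CTRL and in replicate 10 of BAT Cth+/+ CysF. The rows of mt-Co1 and mt-Nd4 held 88.7 to 96.5% and 82.9 to 96.7% of their pairs in all libraries. A difference between sets in the deposited rows of mt-Nd3, mt-Co3, mt-Atp6 or mt-Nd4l can therefore not be told apart from a difference in how the pair's reads were divided.

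Brown fat carried the highest mean mitochondrial share of counts in every genotype and diet. In Cth+/+ mice on CTRL the mt- rows took 28.9, 35.9, 23.3 and 24.9% of the counts in BAT, against 7.22, 8.52, 9.91 and 14.4% in SFAT and 10.5, 9.48, 6.46 and 11.5% in EFAT. Libraries of BAT did not overlap with those of either white depot, and the 2 white depots overlapped. Over all groups the share was 21.8 to 45.7% in BAT, 7.06 to 31.3% in SFAT and 4.82 to 14.7% in EFAT. With the chromosome 1 copies added, it reached 64.3% of the counts in BAT replicate 12 of the Cth-/- CTRL group.

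**Figure D2:**
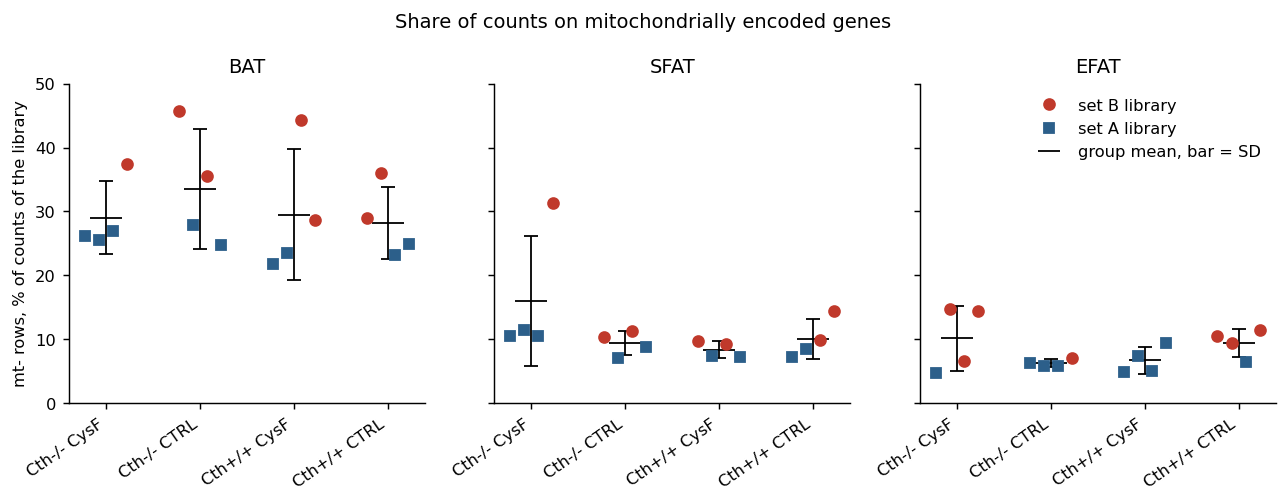
The percent of each library's counts on the mt- rows is plotted for the 12 groups of 4 libraries, with set B as circles, set A as squares, and the group mean with its SD. In each of the 11 groups that hold both sets, every set B library lies above every set A library, and replicate 20 of SFAT Cth-/- CysF stands at 31.3%.

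In CPM per kilobase of transcript and with the copies added, mt-Atp6 had the highest mean in every depot in Cth+/+ mice on CTRL. It reached 82574, 105060, 62781 and 71054 in the 4 BAT libraries, against a mean of 25749.9 ± 8913.85 in SFAT and 24343.7 ± 6431.72 in EFAT (SD, n = 4 each). mt-Co1 averaged 57742.1 ± 8123.34 in BAT, 25289.5 ± 6592.88 in SFAT and 21589.5 ± 3597.94 in EFAT on the same scale. For each of these genes the SFAT and EFAT means lay within the SFAT SD of each other.

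The lowest protein gene was mt-Nd6, the complex I subunit coded on the other strand, at 2120.41 ± 468.758 in BAT, 524.163 ± 189.826 in SFAT and 460.798 ± 127.939 in EFAT (SD, n = 4 each). Among the rRNAs mt-Rnr2 stood at 1.72 ± 0.438 in BAT, 0.126 ± 0.0477 in SFAT and 0.0996 ± 0.0554 in EFAT. For the 12S rRNA mt-Rnr1 they had 1.15 ± 0.186, 0.124 ± 0.105 and 0.0614 ± 0.0533. These are levels in poly(A) libraries. How the poly(A) selection changed mt-Nd6 and the rRNAs relative to the other genes was not tested, so they are not read as amounts in the tissue.

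**Figure D3:**
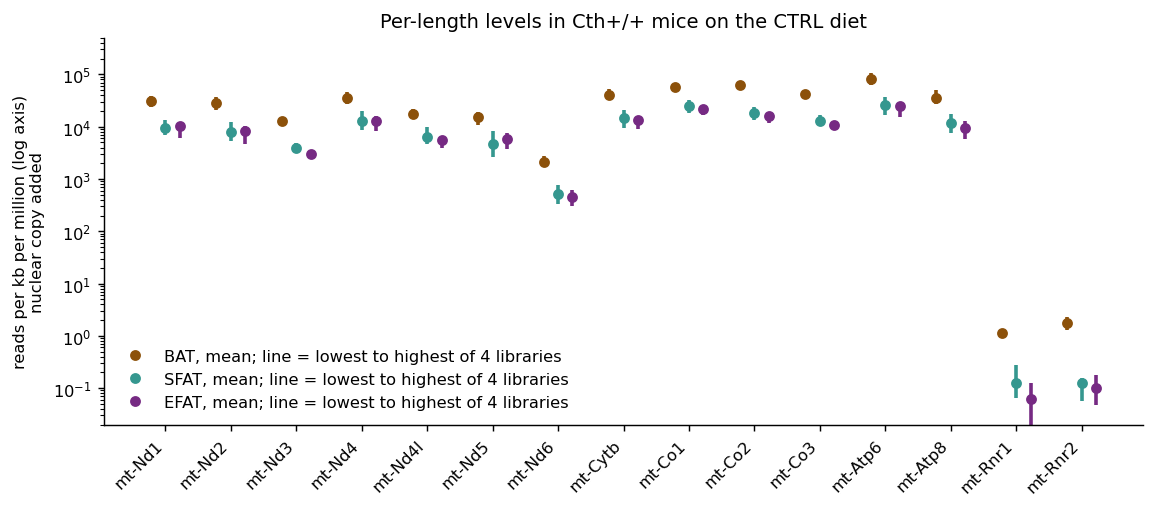
Mean CPM per kilobase of transcript of each mt- gene, on a log axis, are shown for BAT, SFAT and EFAT of Cth+/+ mice on CTRL, with a line from the lowest to the highest of 4 libraries and the chromosome 1 copy added where there is one. mt-Rnr1 was at 0 in an EFAT library, which the log axis cannot show. BAT lies above both white depots for all 15 genes, from mt-Atp6 at the top of the protein genes to mt-Nd6 at the bottom.

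All 13 protein genes were higher in BAT than in SFAT and than in EFAT of Cth+/+ mice on CTRL (edgeR quasi-likelihood test, Benjamini-Hochberg adjusted p under 0.05 over all genes). Of all genes, 53.0% were called between BAT and SFAT and 60.0% between BAT and EFAT, with 25.9% and 26.9% higher in BAT. The median log2 fold change of the 13 genes was 2.71 for BAT over SFAT, against -0.04 for all genes tested, and 2.84 for BAT over EFAT, against -0.09. Between SFAT and EFAT 0 of 13 were called, where 15.2% of all genes were, with a median of 0.20. DESeq2 called 1 there, mt-Nd3, and 4929 of 18348 genes had an unadjusted p under 0.05.

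Among the protein genes, mt-Nd1 was higher in BAT than in SFAT by 2.74 ± 0.50 (log2 ± SE) and higher than in EFAT by 2.65 ± 0.49. mt-Cytb, the only complex III subunit of the mitochondrial genome, differed by 2.55 ± 0.51 and 2.67 ± 0.51. The 2 largest differences as deposited were those of mt-Atp6, at 4.11 ± 0.86 and 4.55 ± 0.88, and mt-Co3, at 3.86 ± 0.69 and 4.61 ± 0.71. With the copies added they came to 2.69 ± 0.50 and 2.80 ± 0.50 for mt-Atp6, and to 2.69 ± 0.27 and 2.97 ± 0.27 for mt-Co3, in the range of the genes that have no copy. The rRNA genes stood at 4.19 ± 0.57 and 5.14 ± 0.61 (mt-Rnr1) and at 4.74 ± 0.55 and 5.10 ± 0.56 (mt-Rnr2), from the few reads given above. In fits of 1 depot mt-Rnr1 passed the filter on low counts in neither white depot and mt-Rnr2 not in EFAT, so the entry of mt-Rnr1 and, against EFAT, of mt-Rnr2 rests on BAT reads and nothing is read from those calls.

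Nuclear genes for the same complexes stood higher in BAT too. Of 75 nuclear subunit genes of complexes I, III, IV and V, 72 were higher and 2 lower in BAT than in SFAT (median 2.31), and 72 were higher and 2 lower than in EFAT (median 2.67). By complex, all 36 genes of complex I, 9 of complex III and 14 of complex IV were higher in BAT than in SFAT, as were 13 of 16 of complex V, 4 of complex II and 13 of the citric acid cycle. The 2 lower genes, named after their values were seen, were both of the complex V list. Atp5g1, a subunit of the c-ring, stood at -1.06 ± 0.25 over SFAT and -1.26 ± 0.25 over EFAT. Atpif1, which inhibits the ATP synthase, stood at -0.94 ± 0.26 and -1.38 ± 0.26. Examples are Ndufv1, which binds NADH, at 2.92 ± 0.24, the core subunit Uqcrc1 at 2.98 ± 0.20, and Cox7a1, a heart and muscle type subunit, at 5.93 ± 0.56. All p-values of these genes were adjusted over all genes in edgeR.

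Genes that make and handle mitochondrial RNA or keep the DNA were higher in part, where 25.9% of all genes were higher in BAT than in SFAT and 26.9% than in EFAT. Of 10 mitochondrial transcription genes 8 were higher in BAT than in SFAT and in EFAT, with Mterf2 at 1.86 ± 0.16 and the transcription factor Tfb2m at 1.61 ± 0.11 over SFAT. Of 21 RNA processing genes 19 and 18 were higher, with Fastkd1 at 2.31 ± 0.15 and Lrpprc, which stabilises mitochondrial mRNAs, at 2.20 ± 0.12 over SFAT. Of 9 tested genes of DNA maintenance 4 were higher in both, with Tfam, which packs the mitochondrial DNA, at 1.20 ± 0.15 over SFAT. Whether these counts differ between the lists was not tested.

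Marker genes differed between the depots alongside. The 8 brown adipocyte markers summed to 5648.3 to 8130.17 CPM of nuclear reads in BAT, against 123 to 323 in SFAT and 35.1 to 46.0 in EFAT, and 12 skeletal muscle markers to 758 to 2654.9, against 12.4 to 462 and 23.4 to 43.9. No marker of either list was at 0 in all libraries of these groups, and the part of muscle in the BAT values was not tested. In bulk tissue, fewer cells of a type and less RNA per cell cannot be told apart.

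Within the mitochondrial pool mt-Co1 took a smaller mean part in BAT than in the white depots, and mt-Nd6 a larger one. Of the per-length sum over the 13 protein genes, with copies added, mt-Atp6 made 18.1 ± 1.01% in BAT, 16.8 ± 0.735% in SFAT and 16.8 ± 0.992% in EFAT (SD, n = 16 libraries each). mt-Co1 made 11.8 ± 1.06% in BAT, against 16.0 ± 1.58% in SFAT and 15.7 ± 1.44% in EFAT. mt-Cytb made 9.49 ± 0.740%, 8.94 ± 0.635% and 9.07 ± 0.521% in the same depots, and mt-Nd6 0.430 ± 0.129%, 0.316 ± 0.111% and 0.295 ± 0.0644%. These are shares, so a higher share of 1 gene lowers the others.

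The mitochondrial share differed between the library sets within the groups. In BAT it was 36.7 ± 6.68% in set B (n = 7) and 25.0 ± 1.93% in set A (n = 9), in SFAT 13.8 ± 7.90% and 8.76 ± 1.73%, and in EFAT 10.6 ± 3.18% and 6.23 ± 1.47%. In each of the 11 groups with both sets, every set B library lay above every set A library. With set labels permuted within groups, the exact two-sided p was 0.00116 in BAT and in SFAT, the smallest that 864 arrangements allow, and 0.0156 in EFAT, the smallest that 64 allow (0.00174, 0.00174 and 0.0156 adjusted over the 3 depots). The difference centred on group means was 11.4, 6.30 and 2.35 percentage points, and 10.1, 2.64 and 2.17 without replicate 20 of the Cth-/- CysF group. The EFAT difference no longer passed without it, at an exact permutation p of 0.0833 adjusted over the 3 depots. Nor did it pass without replicate 17 of that group (0.0833 adjusted). The adjusted p was 0.0625 without replicate 16 of that group, replicate 3 of Cth+/+ CTRL or replicate 15 of Cth-/- CTRL. Each of these 3 is the only library of its set in its group, so without it the test had too few arrangements to pass. The reads of Gm43512 define the sets, and the mt- rows did not enter that choice.

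By gene, with group means in the model, 11 of 15 mt- genes were higher and 2 lower in set B than in set A in BAT. There 19.8% of all genes were called, with 9.94% of all genes higher and 9.84% of all genes lower in set B. In SFAT 9 of 14 were higher, where 10.0% of all genes were called. In EFAT 0 of 13 were called, where 1.79% of all genes were, with a lowest adjusted p of 0.0668. There 3533 of 18219 genes had an unadjusted p under 0.05. DESeq2 called 7 of the 13 in EFAT, 6 higher and 1 lower in set B, and 1354 of the 18219 genes. The median difference was 1.13 in BAT, 0.95 in SFAT and 0.88 in EFAT (log2), against medians of 0.00, 0.01 and 0.02 over all genes. Without replicate 20 of the Cth-/- CysF group 4 genes were higher and 1 lower in SFAT, with a median of 0.55, where 2.65% of all genes were called.

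The 2 lower genes in BAT were mt-Co3 and mt-Nd3, both with a chromosome 1 copy. The mt-Co3 row held 0.0565 to 0.131% (median 0.101%) of the counts in set B and 0.164 to 0.692% (median 0.287%) in set A, and the mt-Nd3 row 0.0380 to 0.0612% (median 0.0420%) and 0.0999 to 0.173% (median 0.130%). With their copies the ranges were 2.90 to 3.39% in set B and 2.84 to 3.49% in set A for mt-Co3, and 0.424 to 0.506% and 0.421 to 0.687% for mt-Nd3. The deposited rows did not overlap between the sets, and the sums with the copies did.

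In the fit, mt-Co3 stood at -1.37 ± 0.29 (log2 ± SE, adjusted p 0.0043) and mt-Nd3 at -1.01 ± 0.16 (adjusted p 0.00078) as deposited. With the copies added they stood at 0.49 ± 0.09 (adjusted p 0.0023) and 0.39 ± 0.11 (adjusted p 0.024), and 13 of the 15 genes were then higher and 0 lower, where 19.7% of all genes were called. The 2 left were the rRNA genes, at 0.49 ± 0.22 (mt-Rnr1, adjusted p 0.13) and 0.29 ± 0.25 (mt-Rnr2, adjusted p 0.45). mt-Atp6 stood at 2.48 ± 0.28 as deposited and at 1.12 ± 0.18 with its copy, and mt-Nd4l at 1.85 ± 0.30 and 1.05 ± 0.18.

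Genes that have no copy need no such addition. mt-Nd2 took 3.05 to 5.61% of the counts (median 3.91%) in set B of BAT and 2.03 to 2.93% (median 2.54%) in set A, without overlap, and differed by 1.25 ± 0.20. mt-Nd1 differed by 1.13 ± 0.19, mt-Nd5 by 1.21 ± 0.19, mt-Cytb by 1.13 ± 0.20 and mt-Atp8 by 1.19 ± 0.18 there. In SFAT mt-Nd2 differed by 1.08 ± 0.25 and mt-Atp8 by 1.06 ± 0.22. With the copies added 10 of 14 were called in SFAT, where 9.98% of all genes were, and 0 of 13 in EFAT, where 1.87% were, and all were above 0 in these 2 depots, at 0.17 to 1.08 in SFAT and 0.21 to 1.12 in EFAT.

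**Figure D4:**
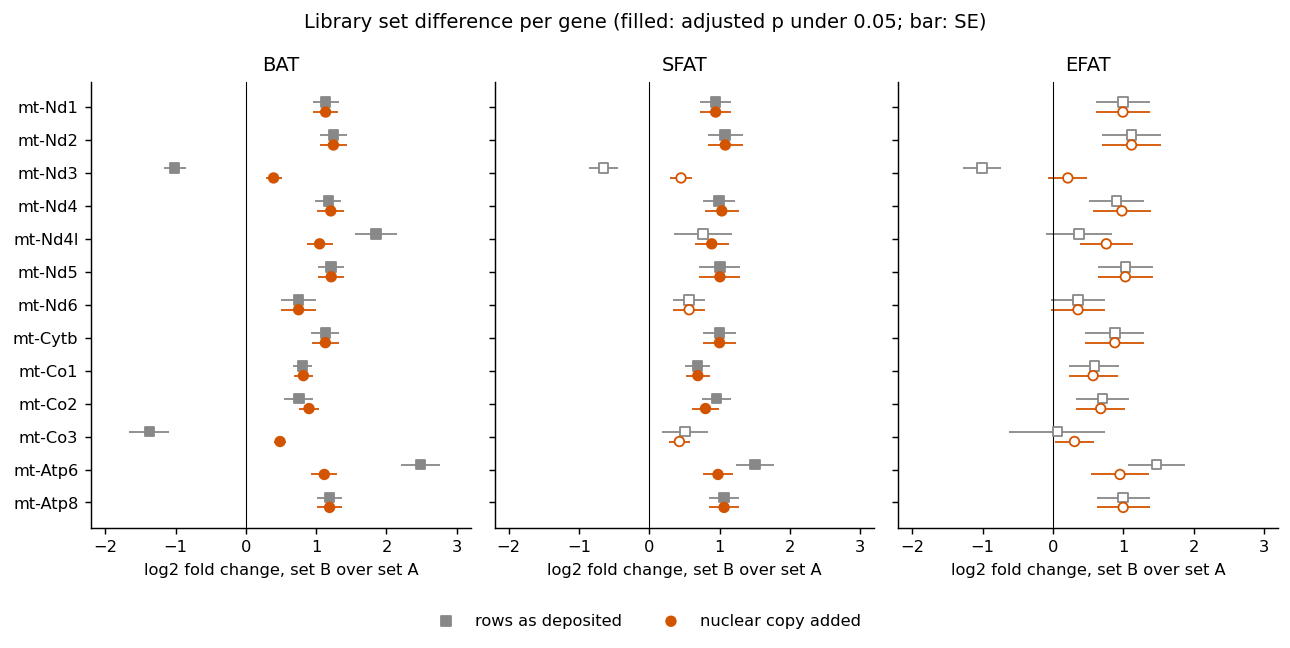
Log2 fold change of set B over set A (bars: SE) for the 13 protein genes in BAT, SFAT and EFAT, for the rows as deposited (squares) and with the chromosome 1 copy added (circles), filled where the adjusted p was under 0.05. In BAT mt-Co3 and mt-Nd3 lie below 0 as deposited and above 0 with their copies, and the 11 other genes lie above 0 both ways.

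The scaling matters here because mitochondrial reads fill so much of a library. With library totals in place of TMM factors, the median over all genes moved to -0.45 in BAT and -0.13 in SFAT, while the median of the mt- genes stood at 0.62 and 0.77, with 9 higher and 2 lower in BAT and 9 higher and 1 lower in SFAT. A TMM difference of the mt- genes is therefore one relative to the bulk of the nuclear genes.

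The make-up of the mitochondrial pool also differed between the sets. With copies added, mt-Co3 made 5.34 to 9.21% of the per-length sum in set B of BAT and 9.23 to 10.2% in set A, 4.49 to 8.36% and 8.81 to 9.92% in SFAT, and 4.81 to 8.27% and 9.01 to 9.79% in EFAT. Within a depot the sets never overlapped. mt-Nd3 made 2.04 ± 0.465% in set B (n = 21) and 2.92 ± 0.481% in set A (n = 27) over the depots.

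Other genes took the larger share in set B: mt-Nd2 made 6.29 ± 0.799% there and 5.42 ± 0.510% in set A, mt-Nd4 8.88 ± 0.994% and 7.89 ± 0.650%, and mt-Atp8 7.46 ± 0.708% and 6.49 ± 0.749%. This was noticed in the values and carries no test.

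Among nuclear genes of the same complexes, more were lower than higher in set B. Of all genes, 9.94% were higher and 9.84% lower in BAT, and 10.0% in SFAT and 1.79% in EFAT were called in either direction. Of 75, 5 were higher and 36 lower in set B of BAT (median -0.21), 1 was higher and 25 lower in SFAT (median -0.22), and 0 of 74 were higher and 5 lower in EFAT (median -0.33). In SFAT 5 were lower without replicate 20 of the Cth-/- CysF group, where 2.65% of all genes were called. Leaving out 1 library at a time gave 5 to 29 lower in SFAT and 0 to 14 in EFAT. With library totals, which moved the median of all genes in BAT to -0.45 as given above, 0 were higher and 69 lower there, with a median of -0.66. Examples are Atp5e, the epsilon subunit of the ATP synthase, at -1.11 ± 0.14 in BAT and -1.29 ± 0.21 in EFAT, and the complex I subunit Ndufa2 at -0.86 ± 0.11 in BAT and -0.74 ± 0.12 in SFAT. Of the transcription and RNA processing lists, 0 of 10 and 2 of 21 were higher and 1 and 2 lower in BAT, with the RNA exonuclease Rexo2 higher at 0.38 ± 0.09. These counts lie near the shares of all genes, so nothing about the lists is read from them.

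The study's main contrast is the diet in Cth-/- mice. In SFAT mt- rows took 10.6, 11.5, 10.6 and 31.3% of the counts on CysF and 10.4, 7.06, 11.4 and 8.75% on CTRL, in BAT 26.1, 25.5, 26.9 and 37.5% and 45.7, 27.9, 35.6 and 24.7%, and in EFAT 4.82, 14.7, 6.70 and 14.4% and 6.29, 5.84, 5.79 and 7.13%. The diets overlapped in every depot. The means were 16.0 ± 10.2% on CysF and 9.40 ± 1.90% on CTRL in SFAT, 29.0 ± 5.68% and 33.5 ± 9.35% in BAT, and 10.2 ± 5.14% and 6.26 ± 0.623% in EFAT (SD, n = 4 each).

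None of the 12 comparisons of the share by diet or genotype passed an exact two-sided permutation test once adjusted over the 12. With 4 against 4 libraries the p cannot lie below 0.0286, and a single comparison at that floor stands at 0.343 once adjusted. A lone comparison could therefore not pass, and nothing is concluded from the failure. For the diet in Cth-/- mice the exact p was 0.114 in SFAT, 0.543 in BAT and 0.343 in EFAT (0.429, 0.724 and 0.686 adjusted). The smallest was for Cth-/- over Cth+/+ mice on CysF in SFAT, at 16.0 ± 10.2% and 8.42 ± 1.30% (SD, n = 4 each), with an exact p of 0.0286 and 0.343 adjusted. There the 4 Cth-/- libraries all lay above the 4 Cth+/+ libraries, which held 9.72, 7.43, 9.35 and 7.18%. Without replicate 20 the difference was 2.48 percentage points for this comparison and 1.495 for the diet in Cth-/- mice in SFAT, against 7.57 and 6.59 with it. For the diet in Cth-/- mice it was -7.30 without it and -4.47 with it in BAT, and 2.47 without it in EFAT.

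By gene, 4 of 14 mt- genes rose on CysF in SFAT of Cth-/- mice, where 25.4% of all genes were called and 11.8% rose. They were mt-Nd4l at 2.22 ± 0.64 (adjusted p 0.019), mt-Co2 at 1.32 ± 0.45 (0.041), mt-Nd3 at 1.04 ± 0.36 (0.045) and mt-Nd1 at 1.32 ± 0.46 (0.048), each as log2 ± SE and edgeR adjusted p. The median of the 14 was 1.23, against 0.03 for all genes. A share of 4 in 14 is near the 25.4% of all genes called in either direction and above the 11.8% that rose. The count was 0 without replicate 20 of the CysF group, so nothing about the mt- genes is read from it.

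The mt-Nd4l row held 0.0897, 0.116, 0.107 and 0.620% of the counts on CysF and 0.0665, 0.0588, 0.0806 and 0.0751% on CTRL. With its copy it held 0.178, 0.212, 0.198 and 0.620% on CysF and 0.188, 0.126, 0.215 and 0.163% on CTRL. The row alone did not overlap between the diets, and the sum did. Its difference with the copy was 1.20 ± 0.46 (adjusted p 0.070).

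mt-Nd1, which has no copy, held 1.06, 1.13, 1.01 and 3.41% on CysF and 1.01, 0.647, 1.03 and 0.801% on CTRL, and the diets overlapped at their edge. With copies added 2 genes were called, again beside 25.4% of all genes, mt-Nd3 at 0.85 ± 0.27 (adjusted p 0.028) and mt-Nd1 at 1.32 ± 0.46 (adjusted p 0.047). With its copy mt-Nd3 held 0.147, 0.171, 0.136 and 0.241% on CysF and 0.123, 0.102, 0.133 and 0.116% on CTRL, without overlap.

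The last CysF library in each of these lists is replicate 20. Without it 0 of 14 genes were called, where 22.4% of all genes were, and the median was 0.34. Without replicate 13 of the CTRL group 0 were called too, where 17.5% of all genes were, with a median of 1.10. With the library set as a term 11 were called, with a median of 1.21, where 29.5% of all genes were. Within set A, with 3 libraries on CysF and 2 on CTRL, 5 were called, with a median of 0.70, where 27.3% of all genes were. Those 5 were mt-Nd1 at 0.71 ± 0.19, mt-Co2 at 0.83 ± 0.14, mt-Atp8 at 0.77 ± 0.21, mt-Nd5 at 0.85 ± 0.18 and mt-Nd4l at 0.78 ± 0.16. In set B the only CysF library is replicate 20, and 12 were called there, where 19.4% of all genes were.

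**Figure D5:**
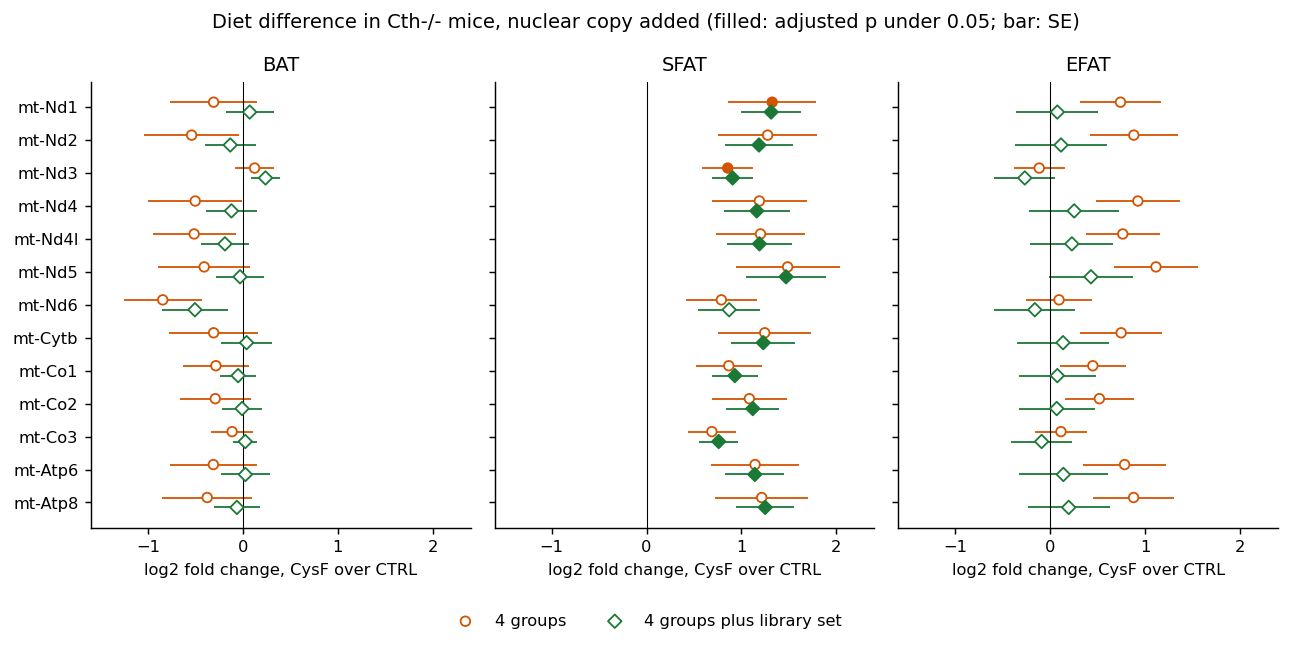
Log2 fold change of CysF over CTRL in Cth-/- mice (bars: SE) for the 13 protein genes with the chromosome 1 copy added, in a model of the 4 groups (circles) and with the library set as a further term (diamonds), filled where the adjusted p was under 0.05. All 13 lie above 0 in SFAT under both, where 2 are filled in the first model and 12 in the second; none is filled in BAT or EFAT.

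In BAT 0 of 15 mt- genes were called for this contrast, where 18.0% of all genes were, with a median of -0.31 and a lowest adjusted p of 0.17. In EFAT 0 of 13 were called, where 28.8% of all genes were, with a median of 0.83 and a lowest adjusted p of 0.071 for mt-Nd5. DESeq2 called 0 in BAT and 1 in EFAT, and 4650 of 14528 and 7169 of 17248 genes had an unadjusted p under 0.05. In EFAT set B held 3 of 4 libraries on CysF and 1 of 4 on CTRL, and with the set as a term 0 of 13 were called, where 17.1% of all genes were, with a median of 0.18. In BAT it held 1 and 2, and with the set as a term 0 of 15 were called, where 20.2% of all genes were, with a median of -0.06. Without replicate 20 0 were called in both, where 14.5% of all genes were in BAT and 19.3% in EFAT, with medians of -0.63 and 0.53.

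Nuclear genes of the same complexes rose with the diet in SFAT of Cth-/- mice, 55 of 75 with 0 falling and a median of 0.68. Without replicate 20 it was 59 rising and 1 falling (median 0.72), with the set as a term 56 and 0, and with library totals 24 and 1 (median 0.51). By complex, 25 of 36 genes of complex I rose, 8 of 9 of complex III, 13 of 14 of complex IV and 9 of 16 of complex V, as did 12 of 13 citric acid cycle genes. Among them were the complex I subunits Ndufa5 at 0.95 ± 0.15 and Ndufa6 at 0.92 ± 0.13, the Rieske iron-sulfur protein Uqcrfs1 at 0.95 ± 0.26, Cox7a1 at 2.03 ± 0.52 and Cox8b at 1.24 ± 0.21, and Atp5h at 0.80 ± 0.11.

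Genes that act on mitochondrial RNA rose in part. Of all genes, 25.4% were called in SFAT (11.8% rose), and 18.0% in BAT and 28.8% in EFAT in either direction. Whether the lists below differ from these shares was not tested. Of 21 tested RNA processing genes 12 rose in SFAT, led by Hsd17b10, a subunit of the mitochondrial RNase P, at 1.78 ± 0.16. It also rose in BAT, at 1.10 ± 0.12, where 11 of 21 did, and in EFAT, at 1.64 ± 0.15, where 2 of 21 did, the other being Grsf1, an RNA granule protein. Of 10 transcription genes 4 rose in SFAT, with Tfb2m at 0.65 ± 0.11 and the RNA polymerase Polrmt at 0.40 ± 0.13; in BAT 3 rose, with Polrmt at 0.55 ± 0.15 and Tfb2m at 0.54 ± 0.10. In EFAT Tfb2m rose, at 0.46 ± 0.10, and Mterf2 fell, at -0.66 ± 0.17. Of 9 genes of DNA maintenance 1 rose in SFAT, the single-strand binding protein Ssbp1, at 0.31 ± 0.10. In EFAT 3 rose, Polg2, the accessory subunit of the DNA polymerase, at 0.52 ± 0.17, the ribonucleotide reductase subunit Rrm2b at 0.40 ± 0.10 and Ssbp1 at 0.36 ± 0.12. In BAT 1 fell, the primase-polymerase Primpol, at -0.69 ± 0.13.

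Outside SFAT few nuclear subunit genes were called: 2 rose and 1 fell in BAT (median 0.22), and 3 rose and 6 fell of 74 in EFAT (median -0.27). The fallen gene in BAT was Cox6a2, a heart and muscle type subunit of complex IV, at -3.02 ± 0.95. Of the 12 muscle markers 9 fell there too, where 18.0% of all genes were called in either direction. In BAT 6 rose and 0 fell without replicate 20 of the CysF group, with Cox6a2 at an edgeR adjusted p of 0.078, with the set as a term 7 rose and 0 fell, and within set A 4 rose and 0 fell. Leaving out 1 library at a time gave 1 to 6 rising and 0 to 3 falling in BAT. In EFAT it gave 1 to 3 rising and 1 to 20 falling, with 20 without replicate 16 of the CysF group and 1 without replicate 14 of the CTRL group.

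Cell type markers moved with the diet in SFAT of Cth-/- mice. There 25.4% of all genes were called in either direction and 11.8% rose. Whether the marker counts differ from these shares was not tested. The 8 brown adipocyte markers all rose (median 2.05) and summed to 489 to 2359.02 CPM of nuclear reads on CysF, against 209 to 498 on CTRL. This list shares Cox7a1 and Cox8b with complex IV. Of 8 fibroblast markers 7 fell, with sums of 1881.52 to 2541.73 on CysF, against 7623.62 to 21004.1 on CTRL. The 12 muscle markers summed to 20.2 to 1555.01, with replicate 20 highest, against 9.98 to 626. Of 8 general adipocyte markers 3 rose, with sums of 28501.8 to 36750 on CysF, against 20345.5 to 24354.3 on CTRL. All 8 B cell markers fell, with sums of 2.12 to 5.03, against 6.97 to 196, and 6 of 8 macrophage markers fell, with 532 to 946, against 915 to 2846.3. The adipocyte, fibroblast and B cell sums did not overlap between the diets. No marker of these 6 lists was at 0 throughout a group. Their part in the mitochondrial values was not tested.

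In BAT of Cth-/- mice the sums on CysF were 12570.1 to 15488.4 for brown adipocyte, 266 to 333 for fibroblast and 4.91 to 225 for muscle markers, against 5889.13 to 9005.97, 874 to 1229.65 and 156 to 1526.65 on CTRL. The adipocyte sums there were 17073 to 18430.3 on CysF, against 15491 to 16879.4 on CTRL, and the macrophage sums 55.2 to 68.1, against 99.4 to 143. In EFAT, where 28.8% of all genes were called for the diet, the sums of 5 lists did not overlap between the diets. The share of all genes without overlap is not given here, so nothing is read from that number. The brown adipocyte markers summed to 46.7 to 93.3 on CysF, against 21.3 to 41.3 on CTRL, and the adipocyte markers to 25619.4 to 28929.2, against 20181.6 to 24477.3. Fibroblast markers summed to 3289.33 to 3606.51, against 4125.34 to 5628.45, macrophage markers to 484 to 671, against 753 to 966, and endothelial markers to 1403.82 to 1683.94, against 988 to 1261.68. The muscle, B cell and epithelial sums overlapped in EFAT. The 9 epithelial markers summed to 161 to 905 on CysF, against 29.8 to 272 on CTRL.

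Between genotypes on CysF, 7 of 14 mt- genes were higher in Cth-/- than in Cth+/+ mice in SFAT, where 37.5% of all genes were called and 18.1% were higher. They were mt-Nd4l at 2.47 ± 0.65, mt-Nd5 at 1.76 ± 0.55, mt-Co2 at 1.44 ± 0.45, mt-Nd3 at 1.44 ± 0.37, mt-Cytb at 1.37 ± 0.49, mt-Nd1 at 1.37 ± 0.47 and mt-Co1 at 1.05 ± 0.35, with a median over the 14 of 1.32. mt-Co1 with its copy held 4.13, 4.52, 4.20 and 8.08% of the counts in Cth-/- mice and 3.32, 2.80, 3.41 and 2.75% in Cth+/+ mice, without overlap. mt-Nd5 held 1.12, 1.25, 1.18 and 4.40% and 0.969, 0.696, 0.789 and 0.649%, also without overlap. Without replicate 20 of the Cth-/- group 2 were called, where 35.9% of all genes were, with a median of 0.46. Without replicate 8 of the Cth+/+ group 2 were called too, where 31.9% of all genes were. Copies added gave 9, where 37.5% of all genes were called, and the set as a term 13, where 40.4% were.

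Among the nuclear subunit genes 60 of 75 were higher and 1 lower in that contrast. This contrast and the diet contrast share the Cth-/- CysF libraries, replicate 20 among them.

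In BAT 0 of 15 mt- genes differed by genotype on CysF, where 31.6% of all genes were called, with a lowest adjusted p of 0.53. DESeq2 called 0 there, and 6100 of 14528 genes had an unadjusted p under 0.05. Within set A of BAT 3 were called, where 31.2% of all genes were, mt-Nd1 at 0.62, mt-Cytb at 0.54 and mt-Atp8 at 0.39. In EFAT 0 of 13 differed, where 39.7% of all genes were called, with a median of 0.49 and a lowest adjusted p of 0.055. There 8383 of 17248 genes had an unadjusted p under 0.05. DESeq2 called 3 of the 13 in EFAT, 2 higher and 1 lower in Cth-/- mice, and 7312 of the 17248 genes. Of the nuclear subunit genes 0 of 74 were higher and 37 lower in EFAT (median -0.51), of which Ndufs4 stood at -1.22 ± 0.27 and Cyc1, cytochrome c1, at -0.94 ± 0.31. Without replicate 20 of the Cth-/- group 20 were lower, without its replicate 17 also 20, and without replicate 11 of the Cth+/+ group 16 were lower and 2 higher. With the set as a term 4 were lower and within set A 0, and the 4 Cth+/+ libraries on CysF are all of set A.

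The diet in Cth+/+ mice and the genotype on CTRL gave 0 called mt- genes in all 3 depots. Of all genes, 0.0826% were called for the diet in Cth+/+ mice in BAT, 0.0664% in SFAT and 0.00% in EFAT. For the genotype on CTRL these shares were 2.10%, 0.103% and 0.0464%. The numbers of genes with an unadjusted p under 0.05 were 1424, 2310 and 678 for the diet and 2660, 1825 and 1070 for the genotype, and DESeq2 called 0 mt- genes in each.

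The diet response differed between the genotypes for 2 of 14 mt- genes in SFAT, where 21.7% of all genes were called, namely mt-Nd4l at 2.69 ± 0.88 and mt-Nd3 at 1.89 ± 0.51 (Cth-/- minus Cth+/+, log2 ± SE), and for 0 in BAT (6.42% of all genes) and EFAT (10.4%). DESeq2 called 0 in BAT and 2 in EFAT, and 3226 of 14528 and 5158 of 17248 genes had an unadjusted p under 0.05. With the copies added 1 was called in SFAT, mt-Nd3 at 1.31 ± 0.37. Leaving out replicate 20 of the Cth-/- CysF group gave 1 as well, where 21.7% of all genes were, and the median was 0.61, against 1.59 with it. mt-Nd3 then stood at 1.76 (edgeR adjusted p 0.030) and mt-Nd4l at 1.10 (edgeR adjusted p 0.076). mt-Nd4l was no longer called in 11 of the 16 fits that left out 1 library, and mt-Nd3 was called in all 16.

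Whether the diet response in Cth-/- mice differed between depots was tested over all 48 libraries. BAT minus EFAT gave 1 of 15, where 16.2% of all genes were called, and it was mt-Rnr2 at 2.79 ± 0.97 (adjusted p 0.043). Its reads were 132, 117, 41 and 44 in BAT on CysF and 36, 59, 40 and 64 on CTRL, and 0, 1, 0 and 1 in EFAT on CysF and 6, 1, 5 and 3 on CTRL, so it rests on few reads. In EFAT alone it did not pass the filter on low counts. Its entry here rests on the reads of other depots, and nothing is read from this call. The adjusted p was 0.055 with DESeq2, 0.070 with no filter and 0.071 to 0.14 without replicate 12, 14, 16, 17 or 18 (edgeR). BAT minus SFAT and SFAT minus EFAT gave 0 of 15, where 2.16% and 4.38% of all genes were called. Without replicate 15 SFAT minus EFAT gave 1, mt-Nd3, where 5.29% of all genes were called. For these 2, DESeq2 called 0, and 2657 and 3977 of 18348 genes had an unadjusted p under 0.05.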

How the data were processed

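Poly(A) RNA of 48 fat libraries was given as 1 table of expected counts per gene, which the authors deposited. Per the submitters' processing notes FastQC, STAR, Picard and RSEM were used with mm10; their versions, the annotation release and the use of strand were not found in these notes or the labels. Of all values in a library, 5.31 to 8.16% were not whole and were rounded, and 0 columns were left unmapped. Library totals of 16.2 to 46.0 M (mega) counts set the precision of each value, and shares carry counting error only in addition to the spread between libraries. Copies of mt- genes were found with BLAST 2.17.0 in GENCODE M21 transcripts (GRCm38), and those with at least 99% identity over at least 200 bases were added to their gene where named so.

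Genes were tested in R 4.3.3 with edgeR 4.0.16 (TMM scaling, quasi-likelihood F-test, a count minimum of 10 and a total of 15, Benjamini-Hochberg adjusted p under 0.05 over all genes), by depot on 4 groups, and over all 48 libraries between depots. limma 3.58.1 and DESeq2 1.42.0 were loaded, DESeq2 as an alternative. Shares were tested by exact permutation with scipy 1.17.1 in Python 3.11.15, with pandas 2.3.3 and matplotlib 3.10.9. The count test was tested on simulated data. Alternatives were other scalings, no filter, only the groups compared, the set as a term or 1 set only, the replicate block and each library left out; adding the copies, also with the set as a term, and the set term between depots were chosen after seeing the data. The members and lists were chosen with earlier results of these data known. All mt- genes with reads are named, and of other lists up to 4 called members by size of change with a mean of at least 1 CPM.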

Additional observations from a re-analysis of the deposited data

Results flagged for a closer look

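In groups of 4, a library was looked at again where its gap to the nearest other library, divided by the group's range, exceeded Dixon's critical value. Of 180 groups checked 18 did so, and chance alone gives such a gap in about 5% of groups. All 18 were replicate 20 of Cth-/- CysF mice, in BAT or SFAT, and the values of 1 library are not independent of each other.

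In BAT that library held 37.5% of its counts on mt- rows and 54.35% with the copies. Among single genes there, mt-Nd2 held 3.913%, mt-Atp8 0.9976%, mt-Nd4 with its copy 6.554% and mt-Cytb 7.305%. In SFAT it held 31.28% on mt- rows and 43.1% with the copies. mt-Nd1 held 3.412%, mt-Nd2 3.385%, mt-Atp8 0.7223%, mt-Nd5 4.398% and mt-Cytb 5.455% there. With their copies mt-Co1 held 8.077%, mt-Co2 3.286%, mt-Atp6 5.622%, mt-Nd4l 0.6202% and mt-Nd4 6.232%.

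Effects that differed between groups by their own test were the diet response of mt-Nd3 in SFAT, larger in Cth-/- than in Cth+/+ mice by 1.888 on the log2 scale (edgeR adjusted p 0.0166), and that of mt-Nd4l, by 2.69 (adjusted p 0.0398). Without replicate 20 of the Cth-/- CysF group the mt-Nd4l value was 1.10 (edgeR adjusted p 0.076), and with its copy added 1.47 (edgeR adjusted p 0.12). The diet response of mt-Rnr2 in Cth-/- mice was larger in BAT than in EFAT by 2.794 (edgeR adjusted p 0.0433), from 0 or 1 read in each EFAT library on CysF, and was no longer called in 5 of the 8 fits that left out 1 replicate number. In EFAT alone mt-Rnr2 did not pass the filter on low counts, so nothing is read from this call.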

How the results depend on the processing

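Of the group-level values 552 kept their direction and side of the threshold, 70 moved, 16 reversed and 5 no longer passed; of single genes 1945 kept theirs, 340 no longer passed and 2 reversed. Those 2 were mt-Co3 and mt-Nd3 between the sets in BAT, at 0.49 and 0.39 with the copies added. Counts of mt- genes called moved as follows. For SFAT minus EFAT, DESeq2 gave 1 and the set term 1 (0 in the report). For the diet response BAT minus EFAT, DESeq2 and no filter gave 0 (1), and for SFAT minus EFAT the replicate block gave 1 (0). For the diet in Cth-/- mice in SFAT (4), DESeq2, no filter and added copies gave 2 each, library totals and only 2 groups gave 1 each, the set term gave 11, and copies with the set term and set B only gave 12 each. For the genotype on CysF in SFAT (7), the set term, copies with the set term and set B only gave 13 each, and only 2 groups gave 2. For the interaction in SFAT (2), the set term with or without copies gave 11, copies 1, set A only 5 and set B only 10. In EFAT (0 in each), DESeq2 gave 1 for the diet in Cth-/- mice and 2 for the interaction. It gave 3 for the genotype on CysF (2 higher, 1 lower) and 7 between sets (6 higher, 1 lower). Library totals, no filter and only 2 groups each gave 1 there for the genotype, and library totals 2 between sets (1 higher, 1 lower). In BAT set A only gave 3 for the genotype on CysF (0). Differences in the mt- share reversed in set A only for the diet in Cth+/+ mice in BAT, at -1.48 percentage points, and in EFAT, at 0.253, for the diet in Cth-/- mice in EFAT, at -1.15, for the genotype on CysF in EFAT, at -1.89, and in BAT, at 3.59, and for the genotype on CTRL in SFAT, at 0.0368; the BAT genotype share on CysF was also 0.434 with copies and 1.06 in set B only. Leaving out 1 library gave counts of 0 to 1 for SFAT minus EFAT and for the diet responses BAT minus EFAT and SFAT minus EFAT, 0 to 10 and 0 to 4 for the diet in Cth-/- mice in SFAT and EFAT, 2 to 14 and 0 to 2 for the genotype on CysF there, 1 to 5 and 0 to 5 for the interaction there, and 5 to 10 and 0 to 1 between sets there. Shares ranged from -3.65 to 3.85 for the diet in Cth+/+ mice in BAT, -3.32 to 4.42 for the genotype on CysF in BAT, -1.54 to 0.853 for the genotype on CTRL in SFAT, and 1.05 to 2.89 between sets in EFAT. The cause was not tested. Same-numbered libraries correlated at -0.22 to 0.75 over 9468 genes (48 pairs, 32 over 0.1), with 28 best matched to their own number; the numbers are not known to be animals. With the replicate block all 13 protein genes were called for BAT minus SFAT and for BAT minus EFAT. Without the block 53.0% and 60.0% of all genes were called there. The 2 rRNA genes were called with the block too, from few reads, and nothing is read from those calls.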
